A study of Mus musculus with 12 samples.

Results

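The integrated stress response and the unfolded protein response are the programs with which a cell answers amino acid shortage, low oxygen and misfolded protein. Their genes were followed here as 43 genes listed by symbol, of 20201 genes in the table of 12 RNA sequencing libraries from mouse primary myotubes, the multinucleated muscle cells that cultured myoblasts fuse into. The list has an ATF4 arm of 27 genes (regulators, amino acid enzymes, amino acid transporters and tRNA synthetases) and an endoplasmic reticulum (ER) arm of 16 genes (chaperones, folding factors and stress sensors). All 43 were in the table, and all 43 passed the minimum mean of 10 normalized counts, so that none was left out of the tests.

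Mice with a floxed allele of Bmal1 (Arntl), the gene of the circadian clock activator BMAL1, were the source of the myoblasts. Per the series' design, the fused cells were infected for 48 hours with an adenovirus, carrying either Cre to delete Bmal1 or an empty vector, and then kept at 21% or 1% oxygen for 6 hours. All libraries therefore carry the floxed allele and a virus. The labels put 6 libraries in a wildtype group at 21% oxygen and 6 in a Bmal1 knockout group at 1% oxygen for 6 hours, so genotype, virus and stated oxygen go together in the labels and cannot be told apart. The labels name neither the promoter that drives Cre nor the number of mice or cultures, so p-values measure no more than the spread from library to library, which may be technical. The titles only number the libraries from 1 to 12. Along that order the labels repeat, so the first 6 and the last 6 libraries each hold 3 of either label. These 2 sets are called title sets here, although neither titles nor labels name or explain them. Replicates 1 to 3 of each label belong to the first title set and replicates 4 to 6 to the second.

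Arntl stood at 133 to 179 normalized counts in the wildtype libraries and at 41.7 to 48.6 in the knockout libraries. Genes known to be induced by low oxygen did not follow the oxygen labels. All 16 listed ones were higher in the second title set than in the first within both labels, with no overlap, and none passed the pooled test between labels. Their summed level was 12509 to 12880 (wildtype) and 14023 to 15039 (knockout) in the first set, and 40020 to 40729 and 40207 to 41463 in the second. Depth was 6376584 to 12463339 recovered reads, of which 11 abundant genes took 51.2% to 67.0%. Wildtype replicate 2, the shallowest library by total reads, stood apart with 29.6% of genes at 0 (13.0% to 21.9% in the others). Outside the 11 abundant genes, knockout replicate 4 had fewer reads (2203478 against 2381830) and 21.9% of genes at 0. Of 12 myotube markers, 8 were higher and 2 lower in the knockout label, and their summed level was 19647 to 24518 in the wildtype and 34379 to 38354 in the knockout libraries. Fibroblast markers were abundant in every library (summed level 81265 to 112818, 0 of 7 tested higher and 1 lower, with Pi16 at 0 in at least 1 library). Myoblast markers (0 of 7 higher, 3 lower) had sums of 782 to 944 (wildtype) and 729 to 766 (knockout) in the first set. In the second set these were 1311 to 1386 and 1037 to 1100. Endothelial markers (2 of 6 higher, 0 lower) had sums of 917 to 1021 in the wildtype and 1233 to 1491 in the knockout libraries. With the title set as a term, a fit described below, 5 of 6 were higher, against 15.9% of all genes. In the pooled test 10.2% of all genes were higher and 9.07% lower. Sums were at most 63.9 for macrophage and 38.7 for adipocyte markers. Ptprc, Adgre1, Csf1r, C1qa and Adipoq were at 0 in at least 1 library. In bulk RNA, fewer cells of a type and less RNA per cell cannot be told apart.

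As background, stress kinases phosphorylate the initiation factor eIF2, which lowers general translation while translation of the transcription factor ATF4 goes up. ATF4, with its partners, switches on genes for amino acid uptake and synthesis, tRNA charging and redox balance, and a feedback that restores translation. In the ER, the sensors PERK, IRE1 and ATF6 respond to unfolded protein. PERK feeds into ATF4, and IRE1 (through XBP1) and ATF6 switch on chaperone genes. In muscle both programs are known to respond to exercise, disuse and energy stress.

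Some promoters of the 2 arms hold different letters, and 4 that hold a motif are shown as examples. Their genes were lower in the knockout label in the pooled test: 2 of the ER arm (Hspa5, Herpud1) and 2 of the ATF4 arm (Chac1, Slc7a11). Other genes that passed are not shown, among them Sdf2l1 and Dnajb9, whose log2 differences (-0.67 and -0.61) exceeded those of Herpud1 (-0.56) and Hspa5 (-0.46). The sequences are the 250 bases before the gene start from RefSeq (GRCm38.p6), 5′ to 3′ on the gene's strand. Capitals mark matches to the C/EBP-ATF response element (CARE, TGATGNAA, or its reverse complement), the ER stress response element (ERSE, CCAAT and CCACG with 9 free bases between them) or ERSE-II (ATTGG and CCACG with 1 free base between them). Hspa5 lies at chr2:34771840-34772089 (plus strand), Herpud1 at chr8:94386179-94386428 (plus strand), Chac1 at chr2:119350992-119351241 (plus strand) and Slc7a11 at chr3:50443614-50443863 (minus strand).
Hspa5: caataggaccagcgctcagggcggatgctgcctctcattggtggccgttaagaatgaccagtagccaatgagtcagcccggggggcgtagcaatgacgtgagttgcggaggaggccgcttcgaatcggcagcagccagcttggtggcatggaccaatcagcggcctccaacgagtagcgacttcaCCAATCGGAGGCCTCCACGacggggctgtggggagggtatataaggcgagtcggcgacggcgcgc
Herpud1: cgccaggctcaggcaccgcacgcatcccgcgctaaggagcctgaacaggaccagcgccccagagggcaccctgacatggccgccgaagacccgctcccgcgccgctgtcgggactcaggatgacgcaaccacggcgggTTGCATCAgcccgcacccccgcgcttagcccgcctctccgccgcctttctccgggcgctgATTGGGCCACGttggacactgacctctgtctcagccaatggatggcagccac
Chac1: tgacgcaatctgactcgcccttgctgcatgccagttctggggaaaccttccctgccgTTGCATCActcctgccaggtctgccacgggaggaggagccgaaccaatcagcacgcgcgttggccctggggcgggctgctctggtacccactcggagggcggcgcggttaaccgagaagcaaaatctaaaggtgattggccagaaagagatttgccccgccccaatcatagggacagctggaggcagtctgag
Slc7a11: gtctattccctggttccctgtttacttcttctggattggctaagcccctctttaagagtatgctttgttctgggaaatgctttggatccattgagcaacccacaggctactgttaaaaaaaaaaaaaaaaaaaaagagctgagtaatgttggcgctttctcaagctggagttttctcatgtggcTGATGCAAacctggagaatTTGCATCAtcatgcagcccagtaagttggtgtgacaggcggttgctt
Hspa5 has its ERSE with the first base 65 bases before the gene start. Distances are counted from the RefSeq start. The gene coordinates printed below come from another annotation. For Hspa5 and Chac1 they begin within the sequence shown, and for Slc7a11 at its last base. The ERSE of Hspa5 thus lies inside its printed gene coordinates. Herpud1 has both a CARE, at 112 bases, and an ERSE-II, at 52 bases. Chac1 has 1 CARE at 193 bases, and Slc7a11 has 2, on opposite strands, at 66 and 47 bases.

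Motifs were searched on both strands from 250 bases before to 50 bases after the gene start. RefSeq promoters were found for 37 of the 43 genes (23 of the ATF4 arm, 14 of the ER arm), of which 4 have 2 promoters. A CARE was present in 8 of the 23 ATF4-arm genes (Asns, Atf3, Chac1, Gars, Nupr1, Pycr1, Slc7a11 and Trib3) and in 1 of the 14 ER-arm genes (Herpud1), against 3.97% of all 32851 promoters. An ERSE was present in 0 of the 23 and in 6 of the 14 genes (Calr, Creld2, Dnajc3, Hsp90b1, Hspa5 and Pdia6), against 0.119% of all promoters. ERSE-II, which shares its CCACG end with ERSE, was present only in Herpud1 among the genes searched (0.0365% of all promoters). The unfolded protein response element TGACGTGG was in none (0.676% of all). The E-box CACGTG, the letters that BMAL1 and CLOCK are known to bind, was in 3 of the 23 genes (Aldh18a1, Gdf15, Nupr1) and in 2 of the 14 (Calr, Dnajb9), against 7.15% of all promoters. A match is a description of letters and not a binding site.

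Across the labels, both arms leaned to lower levels in the knockout libraries. Levels are the deposited normalized counts, listed in the order of replicates 1 to 6. A log2 difference is the knockout mean minus the wildtype mean of log2(value + 1), with its standard error (SE), from a limma fit over 12553 genes. In the pooled test of 6 against 6 libraries, at an adjusted p of 0.05, 2 of the 27 ATF4-arm genes were higher (Atf5, Psat1) and 4 lower (Chac1, Sesn2, Slc7a11, Slc3a2), and 21 did not pass. Of the 16 ER-arm genes 1 was higher (Calr), 8 were lower (Xbp1, Hspa5, Dnajb9, Herpud1, Sdf2l1, Creld2, Manf, Atf6) and 7 did not pass. Over all genes tested, 10.2% were higher and 9.07% lower. The median log2 difference was -0.26 in the ATF4 arm and -0.24 in the ER arm, and -0.0015 over all genes. The same fit with the title set as a term removes the difference between sets from the spread. It gave 3 higher and 15 lower ATF4-arm genes and 1 higher and 9 lower ER-arm genes, beside 15.9% higher and 14.2% lower over all genes. Summed myotube and endothelial markers, and myoblast markers within each set, differed between the labels as well. The part of these markers in the differences of the arms was not tested.

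**Figure D1:**
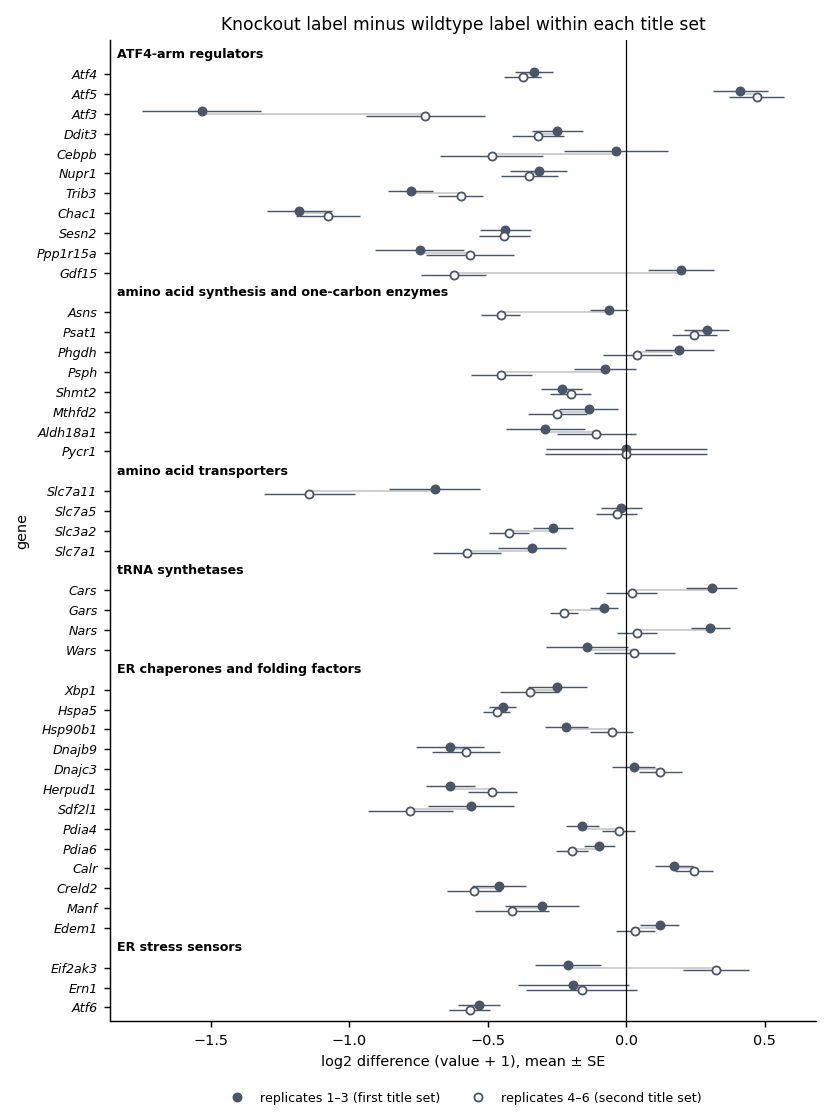
Log2 difference between the labels (knockout minus wildtype, log2(value + 1), x axis) for each of the 43 genes (y axis, grouped by role), within the first title set (filled points, 3 against 3 libraries) and the second (open points, 3 against 3 libraries); bars are standard errors from the 4-group limma fit. Most points lie left of 0 in both sets, with Chac1 at -1.18 and -1.08 and Atf5 to the right at 0.41 and 0.47.

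Among the 11 regulators, the ATF4-target Chac1 had the strongest pooled call and Atf5 the only rise. Chac1 encodes an enzyme that breaks down glutathione (ENSMUSG00000027313, chromosome 2, 119351229 to 119354381, plus strand, mm10). Its levels were 197, 175, 236, 234, 224 and 218 in the wildtype and 89, 87.1, 88.7, 107, 106 and 105 in the knockout libraries. Every knockout library lay below every wildtype library, and knockout replicates 4 to 6 lay slightly above knockout replicates 1 to 3. The means were 214 ± 23.7 and 97.1 ± 9.76 (SD, n = 6), a 2.2-fold lower level in the knockout label (log2 difference -1.13, SE 0.10, limma adjusted p 7.25e-06). Sesn2, a stress-induced inhibitor of the growth kinase mTORC1, stood at 412, 545, 476, 519, 544 and 553 in the wildtype and at 355, 355, 342, 394, 392 and 403 in the knockout libraries. These groups did not overlap either, and the difference was nearly equal in both sets (-0.44 in each, pooled limma adjusted p 0.00242). Groups of 6 that did not overlap were found for 2 higher and 3 lower genes of the ATF4 arm and 0 higher and 6 lower genes of the ER arm, against 7.07% higher and 5.38% lower over all genes.

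Atf5, a transcription factor related to ATF4 and controlled by the same translational switch, stood at 726, 562, 715, 653, 727 and 690.2 in the wildtype and at 922, 809, 921, 909, 953 and 1007 in the knockout libraries. It was 1.36-fold higher in the knockout label, with no overlap (means 679 ± 63.6 and 920.1 ± 65.1, SD, n = 6, log2 difference 0.44, SE 0.08, limma adjusted p 0.00127). Atf5 and Atf4 thus differed in opposite directions between the labels. Atf4 (chromosome 15, 80255184 to 80257541) stood at 1181, 1267, 1230.5, 1744, 1711 and 1653 in the wildtype and at 962, 1050.1, 909.6, 1378, 1244 and 1319 in the knockout libraries. Within each set every knockout library was below every wildtype library, but across the sets the labels overlapped, since knockout replicates 4 to 6 lay level with or above wildtype replicates 1 to 3. The pooled Atf4 difference did not pass (-0.35, SE 0.13, limma adjusted p 0.0851); with the title set as a term its SE was 0.05 and the limma adjusted p 9.78e-05. Within the sets it was -0.33 and -0.37 (limma adjusted p 0.00445 and 0.00256).

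Trib3 and Atf3 were likewise apart between labels within each set and overlapped across the sets. Trib3, a pseudokinase that damps the ATF4 response, stood at 364, 336, 388, 655, 613 and 657 in the wildtype and at 208, 208, 217, 456, 408 and 407 in the knockout libraries. Its knockout level was 1.72-fold lower in the first set and 1.51-fold lower in the second (limma adjusted p 4.35e-05 and 0.000431), while the pooled test did not pass (-0.69, SE 0.26, limma adjusted p 0.0799). Atf3, a stress-induced transcription factor, stood at 76.6, 68.1, 92.5, 142, 132 and 179 in the wildtype and at 21.4, 37.3, 23.1, 83.8, 86.7 and 100.1 in the knockout libraries. The labels were apart within each set, by 2.9-fold in the first and 1.67-fold in the second (log2 differences -1.53 and -0.73, SE 0.21 each, limma adjusted p 0.000358 and 0.0361). The pooled Atf3 difference was -1.13 (SE 0.40, limma adjusted p 0.0682) and passed with the title set as a term (limma adjusted p 0.000409).

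Ppp1r15a encodes GADD34, which brings a phosphatase to eIF2 and so restores translation. It stood at 272, 314, 299.9, 622, 489 and 581 in the wildtype and at 175, 142, 217, 312, 407 and 430.1 in the knockout libraries. The log2 difference was -0.75 and -0.56 within the sets (limma adjusted p 0.00606 and 0.0295), and -0.66 pooled (limma adjusted p 0.151). Ddit3, which encodes the transcription factor CHOP, stood at 283, 259, 262, 516, 446 and 495 in the wildtype and at 220.0, 245, 211, 378, 419 and 369 in the knockout libraries. Nupr1, a small stress-induced nuclear protein, stood at 311, 274, 343, 596, 563 and 620.2 and 243, 269, 231, 505, 477 and 417. Both were apart between labels within each set and passed with the title set as a term (limma adjusted p 0.00469 for Ddit3 and 0.00323 for Nupr1) but not pooled (limma adjusted p 0.451 and 0.431). Cebpb, a C/EBP factor that can pair with ATF4, stood at 158, 172, 272, 411, 328 and 351 in the wildtype and at 166, 192, 216, 302, 240.0 and 236 in the knockout libraries. Its labels overlapped in the first set, and neither label test passed (limma adjusted p 0.488 pooled, 0.184 with the set term). With the set term and the 11 abundant genes left out it passed (-0.42, limma adjusted p 0.0367), beside a median of -0.158 over all genes.

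**Figure D2:**
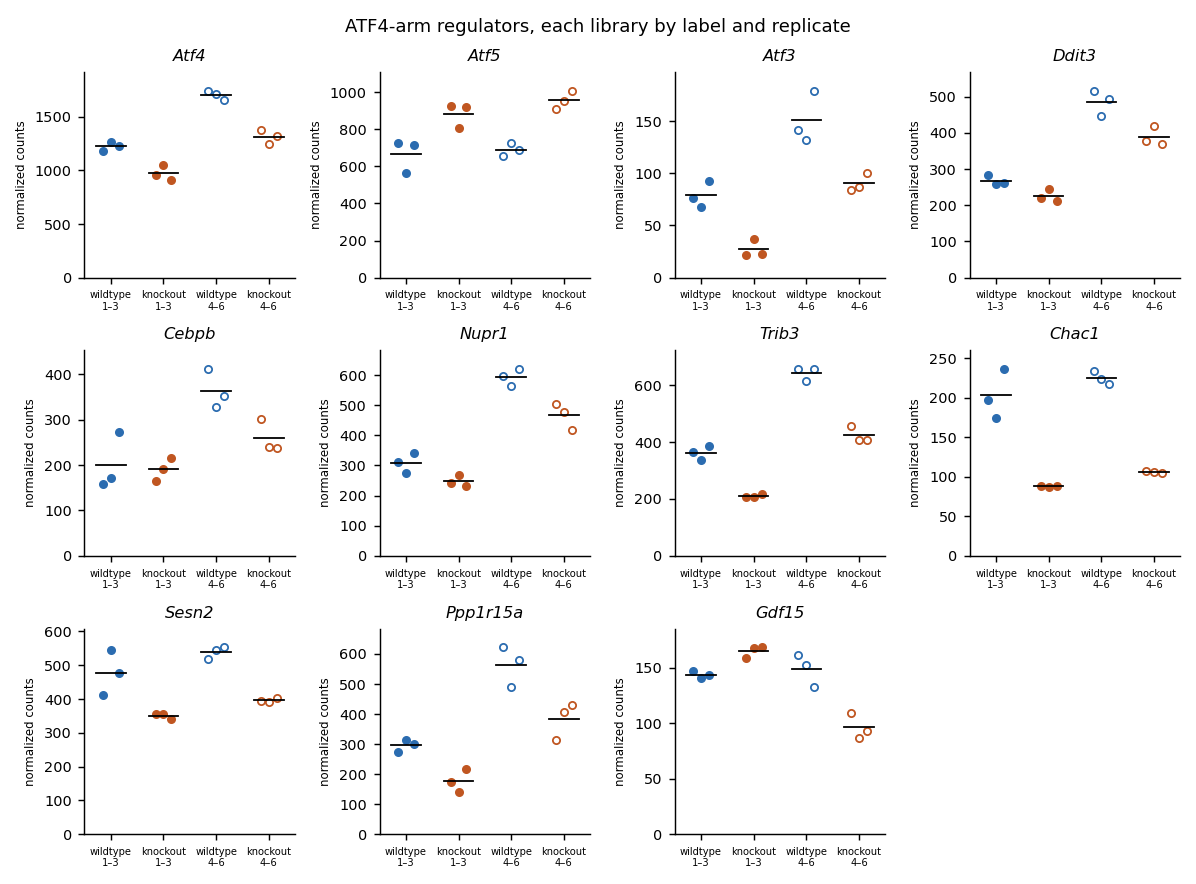
Normalized counts (y axis, from 0) of the 11 ATF4-arm regulators in each library (points) by label and title set (x axis); lines mark the mean of 3 libraries. Atf4, Atf3, Ddit3, Cebpb, Nupr1, Trib3 and Ppp1r15a are higher in replicates 4 to 6 than in replicates 1 to 3 under both labels, while Chac1 and Atf5 separate the labels.

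Gdf15, a secreted stress hormone, was the one regulator whose label difference had opposite signs in the sets. It ranged from 133 to 161 across the wildtype libraries, without a step between sets. In the knockout libraries it was 159 to 169 in replicates 1 to 3 and 86.7 to 109 in replicates 4 to 6. Knockout libraries thus lay above the wildtype ones in the first set and below them in the second. The log2 difference was 0.20 in the first set (SE 0.12, limma adjusted p 0.27) and -0.62 in the second (SE 0.12, limma adjusted p 0.00346). The test of the difference between sets gave -0.82 (SE 0.17, limma p 0.0003192), which did not pass after adjustment (adjusted p 0.2737).

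The second title set stood above the first for most regulators, under both labels. The runs of 3 libraries did not overlap within either label, second above first, for 7 of the 11 regulators (Atf4, Atf3, Ddit3, Cebpb, Nupr1, Trib3 and Ppp1r15a), and none went the other way. In the whole ATF4 arm 8 genes did so upward (these and Slc3a2) and 3 downward (Slc7a1, Gars, Wars), and in the ER arm 2 upward and 1 downward, against 11.1% upward and 8.69% downward over all genes. The second-set mean of Atf4 was 1.39-fold that of the first under the wildtype label and 1.35-fold under the knockout label. For Atf3 these folds were 1.91 and 3.31, for Trib3 1.77 and 2.01, and for Nupr1 1.92 and 1.88. The listed low-oxygen genes moved with the same runs, as Egln3, an oxygen-sensing prolyl hydroxylase, shows at 194 to 270 in the first set and 2036 to 2258 in the second. Their part in the regulators' difference was not tested. Since the labels put both runs of a label in the same group, the runs are described here without a test.

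**Figure D3:**
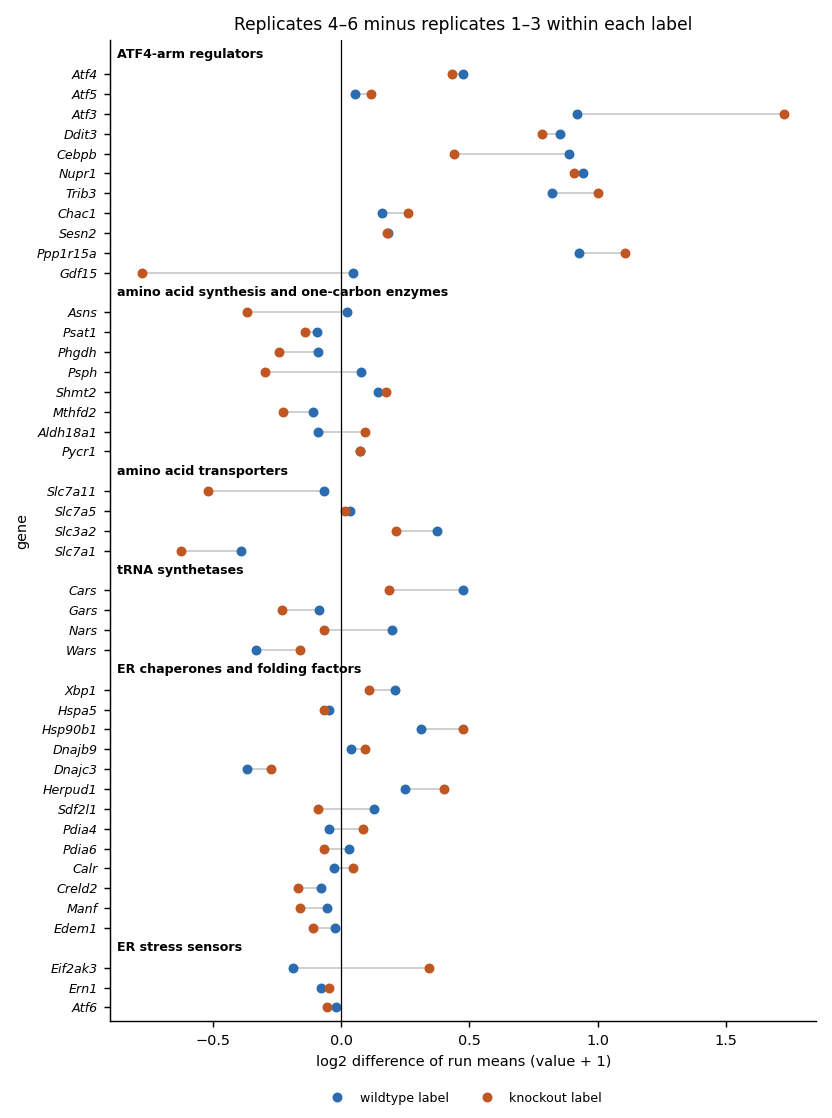
Log2 difference between the title runs (mean of replicates 4 to 6 minus mean of replicates 1 to 3, log2(value + 1), x axis) of each gene (y axis, grouped by role) within the wildtype label (blue) and the knockout label (orange), with no test. The regulators Atf4, Atf3, Ddit3, Cebpb, Nupr1, Trib3 and Ppp1r15a lie right of 0 under both labels, from 0.43 to 1.73, whereas Hspa5 and Atf6 lie near 0.

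The amino acid enzymes showed small differences between the labels, in both directions. Of the 8, 1 was higher and none was lower in the pooled test, near the shares over all genes (10.2% higher, 9.07% lower). With the title set as a term 1 was higher and 3 were lower, against 15.9% and 14.2% over all genes. Psat1, an aminotransferase of serine synthesis, stood at 1059, 1327, 1046, 1069, 1091 and 1036 in the wildtype and at 1409, 1379.8, 1383, 1267, 1245 and 1275 in the knockout libraries. Wildtype replicate 2 was the only wildtype library within the knockout range. The knockout label was 1.2-fold higher (log2 difference 0.27, SE 0.07, limma adjusted p 0.0163). That call was lost with the 11 abundant genes left out (0.11, beside a median of -0.158 over all genes) and with quantile normalization. Shmt2, the mitochondrial enzyme that takes a one-carbon unit from serine, stood at 733, 890.5, 799, 888, 898 and 881 in the wildtype and at 692, 649, 713, 779.9, 783 and 757 in the knockout libraries. The labels were apart within each set, with log2 differences of -0.23 and -0.20. The call passed with the title set as a term (limma adjusted p 0.00648) and not pooled (limma adjusted p 0.0516).

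Asns and Psph were lower in the knockout libraries within the second set and not detectably so within the first, but neither passed the test of a difference between sets. Asns, the asparagine synthetase, stood at 775, 749.6, 793, 773, 769.7 and 813 in the wildtype and at 695, 806, 722, 587, 568 and 564 in the knockout libraries. The wildtype libraries were level, and knockout replicates 4 to 6 lay below all others. The log2 difference was -0.06 in the first set and -0.45 in the second (limma adjusted p 0.000845), with a difference between sets of -0.39 (limma p 0.001596, adjusted p 0.4562). Psph, the last enzyme of serine synthesis, stood at 196, 172, 199, 183, 219 and 196 in the wildtype and at 163, 194, 180.1, 152, 145 and 138 in the knockout libraries. It passed with the title set as a term (limma adjusted p 0.0429). That call was lost when any library except wildtype replicate 2 or knockout replicates 2 and 3 was left out (limma adjusted p 0.0619 to 0.104), and with TMM scaling or quantile normalization.

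The other 4 enzymes passed neither test as deposited. Phgdh, the first enzyme of serine synthesis, ranged from 508 to 657 in the wildtype and from 504 to 712 in the knockout libraries. Mthfd2, a mitochondrial one-carbon enzyme, ranged from 313 to 403 and from 241 to 330.1. Aldh18a1 and Pycr1, enzymes of proline synthesis, ranged from 686 to 1123 and from 641 to 782 (Aldh18a1), and from 58.9 to 92.9 and from 40.9 to 105 (Pycr1). The ranges of the labels overlapped for all 4. With the 11 abundant genes left out, Mthfd2 and Aldh18a1 were lower in the pooled test (-0.35 and -0.36, limma adjusted p 0.0308 and 0.0253). The median over all genes was -0.158 under this setting. Pycr1 had the lowest read number of the 43 genes, 21 recovered reads in 1 library.

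Of the 4 transporters, 2 were lower in the pooled test and 3 with the title set as a term, against 9.07% and 14.2% over all genes. Slc7a11 (chromosome 3, 49892526 to 50443614, minus strand) imports cystine in exchange for glutamate, the supply for glutathione. It stood at 159, 153, 192, 150.5, 167 and 163 in the wildtype and at 96.4, 134, 85.2, 68.2, 78.9 and 68.7 in the knockout libraries. All 6 knockout libraries lay below the lowest wildtype library, and the lowest were in the second set. The mean fell 1.85-fold, from 164 ± 15.1 to 88.6 ± 24.8 (SD, n = 6, log2 difference -0.92, SE 0.15, limma adjusted p 0.000869). Within the sets the log2 difference was -0.69 and -1.15, each with SE 0.16. Slc7a11 and Chac1, a cystine importer and a glutathione-degrading enzyme, were thus both lower.

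Slc3a2 encodes the heavy chain that Slc7a11 and Slc7a5 pair with. It stood at 846, 785, 904, 1098, 1049.9 and 1135 in the wildtype and at 658, 704, 746, 834, 798 and 814 in the knockout libraries. It was lower pooled (-0.34, limma adjusted p 0.0278), a call that ended when any 1 of wildtype replicates 4 to 6 or of knockout replicates 1 to 3 was left out (limma adjusted p 0.0531 to 0.0644). With the title set as a term the limma adjusted p was 0.00036. Slc7a1, an importer of cationic amino acids, stood at 561, 633, 531, 429, 478 and 406 in the wildtype and at 449.9, 392, 524, 281, 267 and 335 in the knockout libraries. It was lower with the title set as a term (limma adjusted p 0.00165; pooled -0.46, limma adjusted p 0.0728). Slc7a1 went against the regulators between sets, since its second run was lower under both labels. Slc7a5, the large neutral amino acid transporter, ranged from 817 to 921 in the wildtype and from 771 to 914 in the knockout libraries, and its log2 difference was -0.03 (SE 0.06). With the 11 abundant genes left out Slc7a5 was lower in the pooled test (-0.18, limma adjusted p 0.0421). That value lay close to the median of all genes under this setting (-0.158).

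None of the 4 tRNA synthetases passed in the pooled test, beside 10.2% higher and 9.07% lower over all genes. Gars, for glycine, stood at 1674, 1668, 1689, 1587, 1557 and 1597 in the wildtype and at 1581, 1549, 1625, 1316, 1369.9 and 1369 in the knockout libraries. Within each set the knockout libraries lay below the wildtype ones, by -0.08 and -0.23 in log2, and the call passed with the title set as a term (limma adjusted p 0.013). Nars, for asparagine, stood at 1371, 1196, 1486, 1531, 1552 and 1554 in the wildtype and at 1661, 1661, 1657, 1581, 1588 and 1589.6 in the knockout libraries. All knockout libraries were above all wildtype libraries, most of the distance lying in the first set (0.30 against 0.04). Its call with the title set as a term (limma adjusted p 0.0498) was lost when any library except wildtype replicates 2 and 3 was left out (limma adjusted p 0.0518 to 0.106), with edgeR, and with the 11 abundant genes left out (0.01, limma adjusted p 0.896), and the direction reversed with quantile normalization (-0.04). The median over all genes was -0.158 with the 11 abundant genes left out. Cars, for cysteine, ranged from 485 to 748 in the wildtype and from 626 to 858 in the knockout libraries. It was higher in the first set (0.31, limma adjusted p 0.0358) and at 0.02 in the second. Wars, for tryptophan, stood at 561, 898, 559, 523, 536 and 504 in the wildtype and at 588, 569, 626, 548, 562 and 487 in the knockout libraries. No test of Wars passed, its second run was lower under both labels, and wildtype replicate 2 stood alone at 898.

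**Figure D4:**
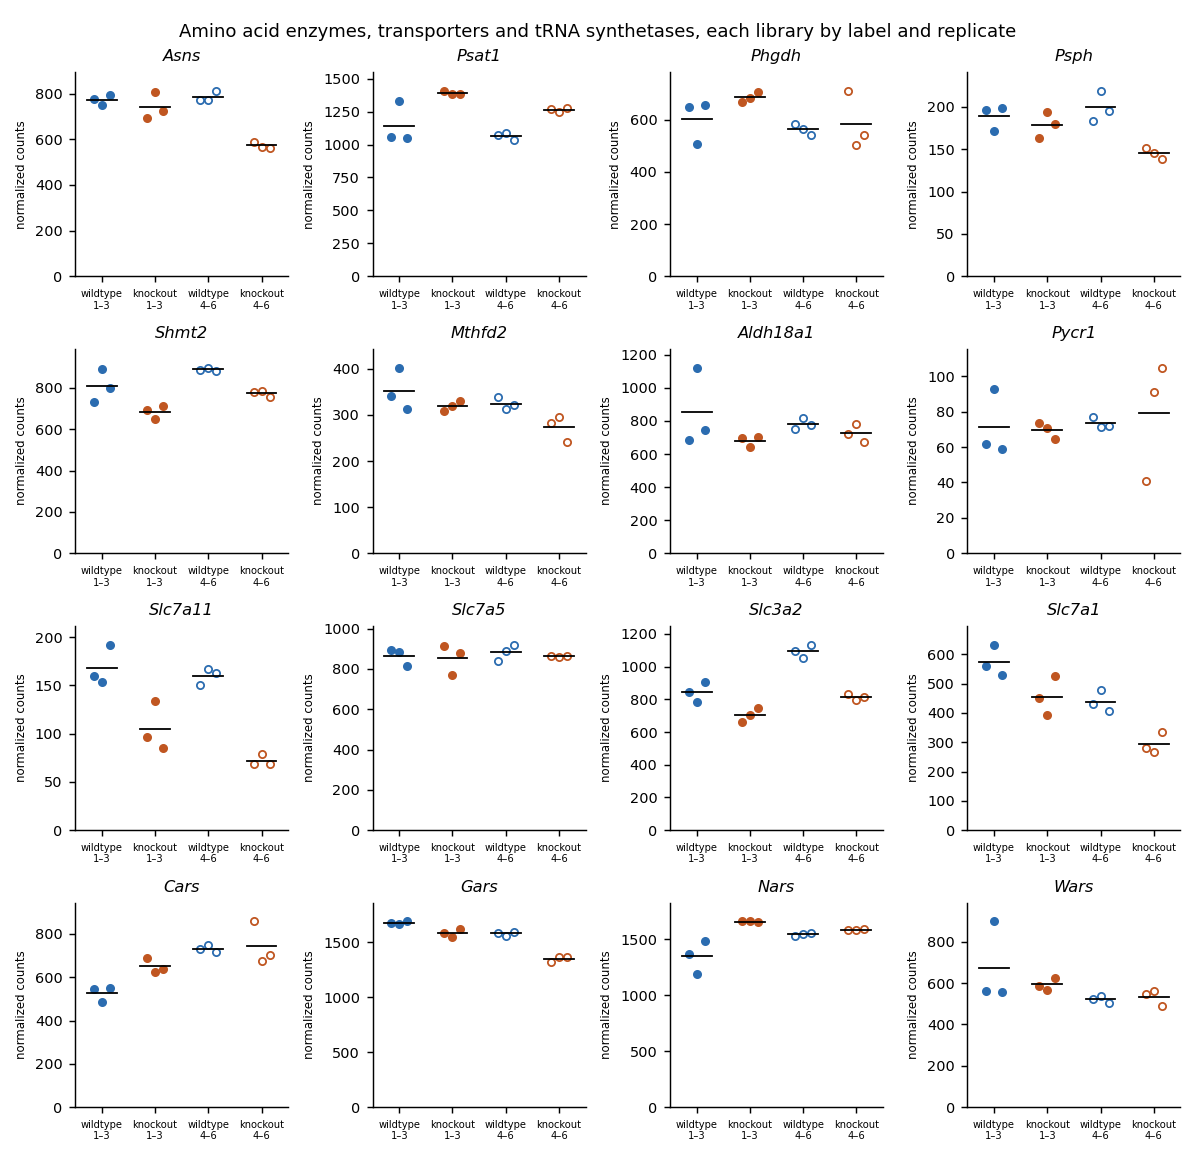
Normalized counts (y axis, from 0) of the 8 amino acid enzymes, 4 transporters and 4 tRNA synthetases in each library (points) by label and title set (x axis); lines mark the mean of 3 libraries. Slc7a11 is lower in all knockout libraries (68.2 to 134 against 150.5 to 192), and Asns is lower in knockout replicates 4 to 6.

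In the ER arm, 7 of 16 genes were apart by label in both sets, and 3 were apart by run under both labels. The former were 1 higher (Calr) and 6 lower (Hspa5, Dnajb9, Herpud1, Sdf2l1, Creld2 and Atf6), against 11.2% higher and 8.93% lower over all genes. In the ATF4 arm 3 higher and 13 lower genes of 27 were apart by label in both sets. Hspa5 encodes BiP, the main ER chaperone, which also holds the sensors inactive (ENSMUSG00000026864, chromosome 2, 34771970 to 34777547, plus strand). It stood at 6853, 6368, 6547, 6451, 6311 and 6356 in the wildtype and at 4782, 4892, 4819, 4675, 4621 and 4525 in the knockout libraries. The highest knockout library lay well below the lowest wildtype library, and neither label had a large step between sets. The mean fell 1.37-fold, from 6481 ± 200.4 to 4719 ± 137 (SD, n = 6, log2 difference -0.46, SE 0.05, limma adjusted p 2.16e-05). Within the sets the log2 difference was -0.45 and -0.47 (limma adjusted p 5.88e-05 and 6.2e-05).

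Hsp90b1 and Calr encode chaperones of the ER too and, like Hspa5, carry an ERSE, but as deposited neither passed as lower. Hsp90b1 (GRP94) stood at 5237, 6178, 5674, 6802, 6746 and 7636 in the wildtype and at 4592, 5138, 4947, 6555, 6557 and 7299 in the knockout libraries. Its second run was higher under both labels, and in the first set the knockout libraries lay below the wildtype ones. Neither label test passed as deposited (log2 difference -0.14, limma adjusted p 0.512 pooled, 0.101 with the set term). With quantile normalization Hsp90b1 was lower (-0.42, limma adjusted p 0.00795 pooled). With the 11 abundant genes left out it was lower with the set term (-0.29, limma adjusted p 0.00108), beside a median of -0.158 over all genes. Calr, the lectin chaperone calreticulin, stood at 4532, 4438, 4509.9, 4367, 4019 and 4873 in the wildtype and at 4837, 5283, 5059, 5153, 5109 and 5396 in the knockout libraries. It was 1.15-fold higher in the knockout label (log2 difference 0.21, SE 0.06, limma adjusted p 0.0187). With quantile normalization the direction reversed (-0.12, limma adjusted p 0.299). With the 11 abundant genes left out the call was lost (0.05, beside a median of -0.158 over all genes). In all, the 6 genes with an ERSE held 1 higher and 2 lower genes in the pooled test, and the 9 genes with a CARE held 0 higher and 3 lower ones, against 10.2% higher and 9.07% lower over all genes. With the title set as a term the ERSE genes held 1 higher and 3 lower and the CARE genes 0 higher and 8 lower, against 15.9% and 14.2% over all genes.

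Several co-chaperones and folding factors were lower in the same libraries as Hspa5. Dnajb9, a co-chaperone of BiP, stood at 314, 242, 311, 296, 284 and 303 in the wildtype and at 213, 182, 162, 199, 190.4 and 201 in the knockout libraries. Sdf2l1, part of a BiP-containing complex, stood at 136, 107, 119.6, 139, 119 and 138 and 91.5, 73.4, 79.9, 64.3, 86.7 and 79.1. Creld2, a folding factor with disulfide-exchange activity, stood at 199, 195, 212, 202, 191 and 182 and 156, 148, 137, 131, 127 and 134. In all 3 the labels did not overlap, and neither set alone carried the difference. The folds were 1.53, 1.6 and 1.42 lower in the knockout label (limma adjusted p 0.000381, 0.000869 and 0.000578). Within the first and second sets the log2 differences were -0.64 and -0.58 for Dnajb9, -0.56 and -0.78 for Sdf2l1, and -0.46 and -0.55 for Creld2.

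Herpud1, which helps remove misfolded proteins from the ER, carried both a label difference and a step between sets. It stood at 642, 722, 635, 776, 741 and 862 in the wildtype and at 417, 455, 413, 591, 511 and 599 in the knockout libraries. All knockout libraries lay below all wildtype ones, and within each label the second run lay above the first. The pooled log2 difference was -0.56 (SE 0.11, limma adjusted p 0.00337), with -0.64 and -0.48 within the sets. Its promoter holds letters of both arms, as shown above.

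Xbp1, the transcription factor whose messenger IRE1 splices, stood at 622, 509.5, 565, 684, 653 and 619.5 in the wildtype and at 479, 511, 435, 439, 554 and 549 in the knockout libraries. Manf, a secreted ER protein, stood at 679, 482, 757, 601, 573 and 642 and 464, 531, 531, 445, 449.5 and 468. For both the labels overlapped, and the pooled calls were near the threshold (log2 differences -0.30 and -0.36, limma adjusted p 0.0327 and 0.023). The call of Xbp1 ended when any 1 of wildtype replicates 1, 4, 5 and 6 or of knockout replicates 1, 3 and 4 was left out (limma adjusted p 0.0614 to 0.0747), and that of Manf when wildtype replicate 1 was (limma adjusted p 0.0524). The gene-level counts do not separate spliced from unspliced Xbp1. Pdia6, a disulfide isomerase, stood at 1791, 1631, 1766, 1741, 1761 and 1794 in the wildtype and at 1600.4, 1678, 1566, 1527, 1521 and 1575 in the knockout libraries. It was lower with the title set as a term (limma adjusted p 0.0188) and not pooled (-0.15, limma adjusted p 0.0556). Pdia4, another disulfide isomerase, ranged from 1290.4 to 1395 and from 1163 to 1324, and Edem1, which hands misfolded glycoproteins to degradation, from 389 to 432 and from 419 to 479.6. Neither passed a label test as deposited. Pdia4 was lower pooled with quantile normalization (-0.30, limma adjusted p 0.00593) and with the 11 abundant genes left out (-0.25, limma adjusted p 0.0061). In the latter the median over all genes was -0.158.

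Dnajc3 encodes a co-chaperone of BiP that also inhibits eIF2 kinases. It stood at 640.1, 658, 668, 516, 466 and 542 in the wildtype and at 696, 686, 622, 536, 543 and 579 in the knockout libraries. It differed between the runs and not detectably between the labels (log2 difference 0.07, SE 0.11, limma adjusted p 0.695). Its second run was lower under both labels, opposite to Hsp90b1 and Herpud1.

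Of the 3 sensors, Atf6 alone passed, as lower (9.07% of all genes were lower in the pooled test). Atf6 (ENSMUSG00000026663, chromosome 1, 170704674 to 170867771, minus strand) encodes the sensor that is itself cut to release a transcription factor. It stood at 719, 756, 715, 706, 689.8 and 762 in the wildtype and at 539, 511, 465, 464, 492 and 499.7 in the knockout libraries. The labels lay far apart relative to the spread within them, with no step between sets. The mean fell 1.46-fold, from 725 ± 28.5 to 495 ± 28.6 (SD, n = 6, log2 difference -0.55, SE 0.06, limma adjusted p 3.31e-05). Eif2ak3, which encodes PERK, stood at 125, 144, 134, 109, 120.3 and 124 in the wildtype and at 112, 108, 128, 146, 160.0 and 136 in the knockout libraries. The runs moved in opposite directions, and the log2 difference was -0.21 in the first set and 0.32 in the second. The difference between sets was 0.53 (limma p 0.007785), not past the threshold after adjustment (adjusted p 0.5488). Ern1, which encodes IRE1, ranged from 86.3 to 149 in the wildtype and from 76.3 to 106 in the knockout libraries and passed no test.

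**Figure D5:**
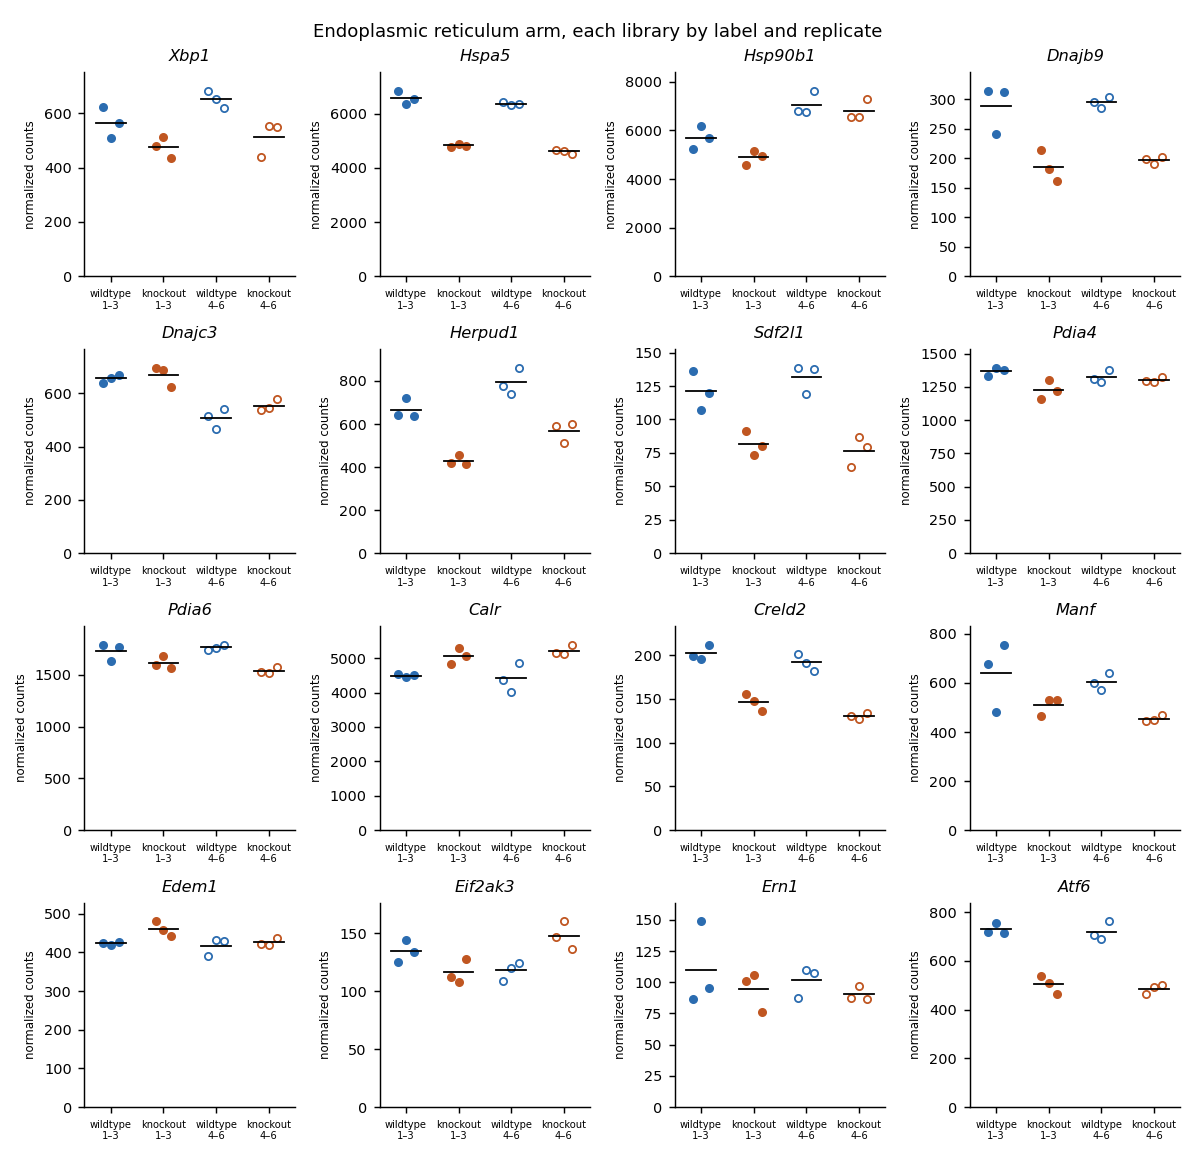
Normalized counts (y axis, from 0) of the 16 ER-arm genes in each library (points) by label and title set (x axis); lines mark the mean of 3 libraries. Hspa5 (4525 to 4892 against 6311 to 6853) and Atf6 (464 to 539 against 689.8 to 762) separate the labels in both sets, and Hsp90b1 separates the sets.

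Within the title sets, tested separately in one 4-group fit, 4 ATF4-arm genes were higher and 9 lower in the first set, and 1 higher and 15 lower in the second. In the ER arm 0 were higher and 6 lower in the first set, and 1 higher and 8 lower in the second. Over all genes 10.8% were higher and 7.97% lower in the first set, and 8.84% and 7.64% in the second. None of the 43 genes passed the test of a difference between the sets after adjustment, by limma or by edgeR, beside 0.00797% of all genes. At an unadjusted limma p of 0.05, 7 genes did (Gdf15, Asns, Eif2ak3, Atf3, Nars, Psph and Cars), beside 8.52% of all genes. DESeq2 called 1 gene, Gdf15, at an adjusted p of 0.0441.

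Other genes of the pathways, 92 tested of 95 listed, differed in both directions, at shares near those of all genes. In the pooled test 8 were higher (Eif2s3x, Eif2b2, Eif2b5, Map1lc3b, Kars, Ssr4, Txndc5 and Wfs1) and 7 lower (Cth, Slc38a2, Slc6a9, Slc7a3, Fgf21, Cebpg and Rars), against 10.2% higher and 9.07% lower over all genes, with a median log2 difference of 0.03. Of the 19 further ATF4-linked genes 1 was higher and 6 were lower. Of 45 further ER genes 3 were higher and 0 lower, of 13 eIF2 and eIF2B genes and their kinases 3 higher and 0 lower, and of 15 further tRNA synthetases 1 higher and 1 lower. With the title set as a term, the further ER genes held 9 higher and 3 lower and the further ATF4-linked genes 2 higher and 8 lower. Over all genes these shares were 15.9% and 14.2%. The median log2 difference of the further ER genes was 0.06, against -0.24 in the ER arm. Wfs1, an ER membrane protein, rose the most, from 339 ± 29.1 to 1096 ± 51.3 (log2 difference 1.69, SE 0.07, limma adjusted p 7.86e-09). Map1lc3b, an autophagosome protein, rose from 604 ± 34.8 to 799 ± 44.3 (limma adjusted p 0.000485). Ssr4, of the translocon-associated complex, went from 344 ± 62.8 to 447 ± 34 (limma adjusted p 0.0383). That call ended when any 1 of wildtype replicates 1, 3 and 6 or of knockout replicates 1 to 4 and 6 was left out (limma adjusted p 0.0528 to 0.0786), with quantile normalization (limma adjusted p 0.104) and with the 11 abundant genes left out (0.24, limma adjusted p 0.191). With the abundant genes left out the median over all genes was -0.158. As deposited, Wfs1 and Ssr4, both of the ER, thus differed in the opposite direction from most ER chaperones listed.

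Among the further ATF4-linked genes that fell, 3 were named for the size of their fall. Slc7a3, an importer of cationic amino acids, fell from 94 ± 26.9 to 46.9 ± 11 (log2 difference -0.98, SE 0.20, limma adjusted p 0.00342). Cebpg, a dimer partner of ATF4, fell from 417 ± 67.7 to 278 ± 57.1 (limma adjusted p 0.00877). Cth, which makes cysteine from cystathionine, fell from 108 ± 34.5 to 55.5 ± 13.4 (limma adjusted p 0.0297). That call ended when any 1 of wildtype replicates 1 and 3 to 6 or of knockout replicates 4 to 6 was left out (limma adjusted p 0.0517 to 0.067). As among the regulators, 9 of the 19 further ATF4-linked genes were higher in the second run under both labels without overlap, and 1 was lower, against 11.1% and 8.69% over all genes. Examples chosen after their values were seen are Ddit4, an mTORC1 inhibitor, at 316 to 478 in wildtype replicates 1 to 3 and 1316 to 1382 in replicates 4 to 6, and Ero1l, an ER oxidase that is also on the low-oxygen list, at 691 to 814 and 5648 to 5788. Under the knockout label Ddit4 was at 351 to 403 and 1076 to 1118, and Ero1l at 719.7 to 908 and 6040.2 to 6295. All 16 listed low-oxygen genes were likewise higher in the second run under both labels. Their part in the difference of the further ATF4-linked genes was not tested.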

How the data were processed

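Total RNA from 12 libraries of mouse primary myotubes was sequenced with a stranded kit, per the labels' protocols. The authors deposited a signal of 1 normalized count per gene and library. Per the submitters' processing notes, they used Trimmomatic 0.33, STAR 2.5.2 with the mm10 genome, RSEM 1.3.3 and DESeq2. RSEM splits reads shared by similar genes by estimate. The deposited values were whole reads divided by 1 factor per library (100% whole within 1e-06 reads), and the recovered reads served for counting-based alternatives only. The share of reads that 11 abundant genes took limits the depth for all others, and 3 reads corresponded to 2.12 to 5.85 normalized counts (counting error only). Of 20201 identifiers, 19953 (98.8%) were named. No 2 libraries of a label were alike within sampling noise (smallest chi-square per degree of freedom 5.04). Knockout replicate 2 was nearer to knockout replicates 4 to 6 (19.2 to 34.7) than to knockout replicates 1 and 3 (270.2 and 442.8). By this measure the knockout libraries did not divide by title set.

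The test was limma 3.58.1 (R 4.3.3) with a trended prior on log2(value + 1) for the 12553 genes with a mean of 10 or more, two-sided, with Benjamini-Hochberg adjustment over all of them and a threshold of 0.05. A second fit took the title set as a term, and another took the 4 title runs as group means for contrasts within each set and between them. Alternatives were edgeR 4.0.16 and DESeq2 1.42.0 on recovered reads, other scalings, minima and pseudocounts, library weights and leaving out each library. In the alternative without the abundant genes, each library was rescaled to its total of remaining reads. The scripts were tested on simulated data. Values per library are printed for genes that passed the pooled test, the test with the title set or the interaction, or whose runs did not overlap under both labels, and the other members by range. Of other pathway genes with a mean of 50 or more, up to 3 rises and 3 falls are named. Gdf15 and Eif2ak3 are described because of their opposite signs between sets, after their values were seen. The members and all lists were chosen with earlier results of these data known, so counts over them are descriptions. Motifs were counted on RefSeq promoters of 300 bases (GRCm38.p6).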

Additional observations from a re-analysis of the deposited data

Results flagged for a closer look

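In 8 of the 86 groups of 6 libraries checked (43 genes, 2 labels), 1 library lay farther from the others than Dixon's 95% critical value allows. For 1 normal sample chance alone gives about 1 in 20. Each group of 6 pools the 2 title sets, so that rate need not hold for genes with a step between sets. In such genes a stray library is hard to flag. Wildtype replicate 2, the shallowest library by total reads though not outside the 11 abundant genes, accounted for 6 of the 8. It was the highest wildtype library for Psat1 (1327 normalized counts), Mthfd2 (402.7), Aldh18a1 (1123), Wars (898.2) and Ern1 (148.7), and the lowest for Pdia6 (1631). Cars was highest in knockout replicate 4 (857.9), and Edem1 was lowest in wildtype replicate 4 (389.3). Without wildtype replicate 2, Pdia6 passed the pooled limma test (adjusted p 0.0184, as did Trib3 at 0.0487 and Psph at 0.0464), and no pooled call among the 43 genes was lost.

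The label difference of Gdf15 had opposite signs in the title sets: its 3 knockout libraries lay above the 3 wildtype ones in the first set and below them in the second. The difference between sets was -0.821 on the log2 scale and did not pass after adjustment by limma (adjusted p 0.2737).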

How the results depend on the processing

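No paired analysis was possible because the titles number the libraries from 1 to 12 and the labels share no replicate numbers. The depth outside 11 abundant genes (2203478 to 5485227 reads) limits the precision for genes of low level, and the groups differ in stated oxygen, virus and genotype at once. Leaving out the abundant genes also replaced the deposited factors, since each library was rescaled to its total of remaining reads. The median log2 difference of all genes then moved from -0.0015 to -0.158 (ATF4 arm -0.415, ER arm -0.394). Differences and calls on that scale are to be read against that shift. The cause of the changes below was not tested.

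With the abundant genes left out, the pooled test gave 1 higher and 15 lower ATF4-arm genes, 0 higher ER-arm genes, 2 higher and 22 lower pathway genes, and 631 higher and 2122 lower of all genes. In the first set it gave 0 higher and 15 lower ATF4-arm and 12 lower ER-arm genes, and in the second 0 higher ER-arm genes. Shares over all genes are not given within the sets. In the first set the median log2 difference was -0.161 over all genes (ATF4 arm -0.301, ER arm -0.392). In the second it was -0.153 (ATF4 arm -0.506, ER arm -0.428). With quantile normalization the pooled test gave 1 higher and 9 lower ATF4-arm, 0 higher ER-arm and 4 higher pathway genes, and 0 higher ATF4-arm genes in either set and 0 higher ER-arm genes in the second. With the title set as a term 15 ATF4-arm genes were lower, 17 pathway genes higher and 15 lower, and 2000 of all genes higher and 1785 lower. Library weights gave 12 lower ATF4-arm and 11 lower pathway genes, and 2 higher ATF4-arm and 2 higher ER-arm genes in the second set. DESeq2 gave 7 lower ATF4-arm genes, 2 higher ones in the second set, and 1 gene (Gdf15) differing between sets. A minimum mean of 50 gave 2 higher ATF4-arm genes in the second set. For quantile normalization, library weights, DESeq2 and this minimum the share over all genes is not given. Their counts describe the dependence on the setting and are no result about the arms. The pooled median log2 difference over all genes was 0.0101, -0.0147, -0.0118 and 0.0256 in that order.

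When each library was left out in turn, higher ATF4-arm genes numbered 1 to 4 in the first set and 1 to 2 in the second, and higher ER-arm genes 0 to 1 in the second. The pooled lower counts were 3 to 6 for the ATF4 arm and 6 to 9 for the ER arm. Shares over all genes are not given for these fits, so the counts describe only the dependence on single libraries. Besides the calls named in the report, the pooled test gained Shmt2 without wildtype replicate 1, Trib3, Psph and Pdia6 without wildtype replicate 2, Asns, Psph and Pdia6 without knockout replicate 2, Slc7a1 without knockout replicate 3, Trib3 without knockout replicate 4, and Atf3 without knockout replicates 5 or 6.

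With the title set as a term, alternatives chosen after seeing the data gave the following. Leaving out the abundant genes left 1 higher ATF4-arm and 0 higher ER-arm genes, 6 higher and 35 lower pathway genes, and 1007 higher and 3390 lower of all genes. Quantile normalization gave 1 higher ATF4-arm, 0 higher ER-arm, and 9 higher and 30 lower pathway genes. The share over all genes is not given for that fit, whose median over all genes was 0.0101. Under quantile normalization Calr reversed to -0.1205 (limma adjusted p 0.299 pooled, 0.117 with the set term), and Nars to -0.04226 (limma adjusted p 0.62).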
